A study of Homo sapiens with 9 samples.

Results

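To learn which pathways and functions changed with siRNA 2 against LINC00673, the 3 libraries of cells transfected with this siRNA were compared with the 3 libraries of cells transfected with a control siRNA. LINC00673 is a long noncoding RNA, and an siRNA is a short RNA duplex that guides the cleavage of a matching transcript. The genes described were the known genes of the deposited table whose mean over these 6 libraries reached 1 FPKM, 11399 of the 17089 known genes and of the 19930 rows with values. FPKM, the fragments counted per kilobase of a transcript relative to all fragments that a library mapped, measure the level of a gene per length. The cells are labelled MDA-MB-453, an established human breast cancer cell line, and were transfected in 6-well dishes with Lipofectamine 2000, a lipid carrier, which all groups received. Cells were harvested 48 h after transfection. A further group of 3 libraries, from cells that received siRNA 1 against the same RNA, entered the same fit and served only to show where siRNA 2 differed. No label says that the 3 libraries of a group came from separate cultures, so the P values measure the spread between these libraries, which may be technical. The level of LINC00673 itself was not analysed here, so the knockdown was not checked in these libraries.

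The strands of siRNA 2 and of the control siRNA are shown because an siRNA also binds other transcripts through its seed, bases 2 to 8 from the 5′ end of the strand in use, which are in capitals. The sequences are those of the study's oligonucleotide list.
siRNA 2 sense: aGACCCUGucucaaauaauaa
siRNA 2 antisense: uUAUUAUUugagacagggucu
control siRNA sense: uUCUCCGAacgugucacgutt
control siRNA antisense: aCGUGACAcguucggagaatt

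The libraries were of like depth and the groups were separated by more than the spread within them. An siRNA 2 library held an estimated 23.0 to 25.4 M fragments and a control library 26.3 to 28.0 M, as read from the spacing of low FPKM values. Genes are not independent replicates, and across them log2(FPKM + 1) correlated with r = 0.997 to 0.998 within a group and 0.96 to 0.969 between siRNA 2 and control. Each group holds a library labelled with no suffix, one labelled r1 and one labelled r2, and values are given in this order. The markers did not all fit the cell line of the label. The luminal factor gene FOXA1 is listed at 0.04 FPKM or less in all 6 libraries. GATA3, another luminal factor, had 0.41 to 0.71 FPKM. The epithelial keratin genes KRT8, KRT18 and KRT19 had 3092 to 3773, 1699 to 2509 and 1087 to 1293 FPKM, ERBB2 had 11.8 to 17.8 FPKM and FGFR4 had 17.9 to 33.1 FPKM. The epithelial adhesion genes CDH1 and EPCAM, chosen after their values were seen, had 84.7 to 103 and 287 to 327 FPKM. The cells are therefore named by their label only. Of 18 markers of leukocytes, fibroblasts and endothelium, 17 are in the table and 12 stayed below 1 FPKM in every library. PTPRC of leukocytes did not exceed 0.03 FPKM and DCN of fibroblasts 0.04 FPKM, and KDR of endothelium is listed at 0. The summed level of the 17 markers was nevertheless higher with siRNA 2, 77.4 to 82.5 FPKM against 50.9 to 53.8 FPKM in control libraries. Most of this came from CD68, which macrophages and many tumor cells express, at 55.5, 57.5 and 59.3 FPKM against 33.2, 34.7 and 32.8 FPKM, and its part in the results was not tested.

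A gene was called where the fold change reached 1.3 and the unadjusted P did not exceed 0.05, the criteria of the study, with limma on log2(FPKM + 1). All log2 fold changes are on this scale, on which the change of a gene with low FPKM appears smaller than it is. With siRNA 2, 1102 genes rose (9.67% of the 11399) and 2687 fell (23.6%). These shares are the background for every list below. At least a 2-fold change was seen in 151 genes that rose and in 313 that fell, and the log2 fold changes ran from -3.3 to 4.54. The 3 siRNA 2 libraries lay above all control libraries in 3012 genes (26.4%) and below them in 5514 genes (48.4%). A single gene cannot reach a P under 0.1 in a two-sided exact permutation test of 3 libraries against 3.

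The excess of falls depended on the scaling. The median log2 fold change of all genes was -0.11, and it was -0.01 once each library was divided by its median ratio to the mean of all libraries. After scaling, 1619 genes rose (14.2%) and 2000 fell (17.5%), so that rises made up 44.7% of the calls compared with 29.1% before. The falls were also concentrated in GC-rich genes. The genes were divided into 5 equal bins by GC content. In the bin with a GC content of 58.6 to 73.9%, the share that fell was 47.2% and the median log2 fold change was -0.35, compared with 12.9% and -0.05 in the bin of 30.2 to 41.0%. With siRNA 1 the medians of the same bins were -0.30 and 0.08. A correction for GC content gave 1656 genes higher (14.5%) and 1759 lower (15.5%) of the 11384 genes with a GC value, and rises were then 48.5% of the calls. A list median is therefore best read against the median of all genes, and where scaling or the GC correction turned its sign, this is stated with it.

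**Figure D1:**
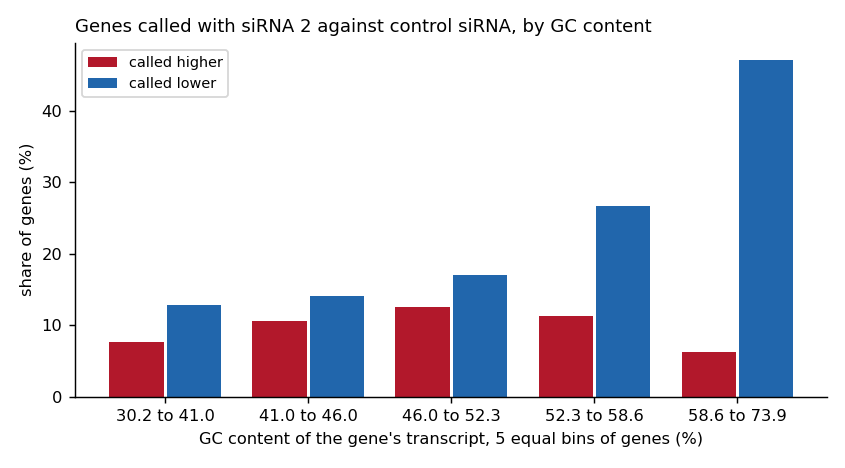
Share of genes called higher (red) or lower (blue) with siRNA 2 against control siRNA, in 5 equal bins of the 11384 genes with a GC value. The horizontal axis gives the GC range of each bin in percent and the vertical axis the share of genes in percent. The share called lower climbs from 12.9% to 47.2%, while the share called higher stays between 6.24% and 12.6%.

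In a human epithelial cancer cell, the RNA levels of stress, metabolic and growth genes are set by a few well-studied programs. Hypoxia-inducible factors switch on glycolysis and glucose uptake. ATF4 switches on amino acid synthesis, import and tRNA charging when amino acids run short or proteins misfold. HSF1 switches on cytosolic chaperones, mitogen-activated kinases switch on the immediate early genes, and β-catenin switches on the Wnt targets. E2F factors drive genes of DNA replication, and FOXM1 with MYBL2 drives those of mitosis. To describe the change by function, the genes were grouped into 77 lists that held 2358 of the genes tested (20.7%).

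Most genes of glycolysis and most hypoxia-inducible genes rose. Of 24 genes for glycolytic enzymes and glucose or lactate transporters, 16 rose and 3 fell, with a median log2 fold change of 0.74. PFKFB3, whose product makes the activator of phosphofructokinase, had 73.7, 76.2 and 77.6 FPKM in the siRNA 2 libraries and 18.9, 17.6 and 17.6 FPKM in the control libraries. The groups lie far apart, with a log2 fold change of 2.02 and a standard error of 0.05 (limma adjusted P = 7.94e-10). SLC2A3, the glucose transporter GLUT3, had 306, 283 and 279.6 FPKM against 95.3, 103 and 100.2 FPKM, a log2 fold change of 1.53 (SE 0.04). Aldolase A (ALDOA) had 2252, 2238 and 2277 FPKM against 1086, 1018 and 1063 FPKM, and LDHA, which turns pyruvate into lactate, 2242, 2117 and 2137 FPKM against 1091, 1095 and 1066 FPKM. Both groups of libraries are again clearly apart in these abundant transcripts, with log2 fold changes of 1.09 for ALDOA and 1.0 for LDHA. Enzymes of other steps also rose, with log2 fold changes of 0.96 for GPI, 0.91 for PGK1, 0.85 for HK2, 0.84 for PGAM1, 0.82 for ENO1, 0.74 for PKM and 0.43 for GAPDH. The lactate and pyruvate exporters did not follow: the log2 fold changes were -0.84 for SLC16A3 and -0.77 for SLC16A1, so that both fell. The third fall was that of PFKL, a phosphofructokinase, with a log2 fold change of -0.45 that did not pass after scaling or the GC correction. PFKM, ALDOC and LDHB were not called, with -0.12, 0.16 and -0.11. SLC2A1, the glucose transporter GLUT1, had a log2 fold change of 0.17 and was not called. TPI1, also called higher, is a gene with processed copies and its level of 12.6 to 13.6 FPKM against 4.09 to 5.68 FPKM is far below that of its neighbours in the pathway, so it is uncertain.

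Among 25 hypoxia-inducible genes, 16 rose and 2 fell (median log2 fold change 0.59). ADM, the vasodilator peptide adrenomedullin, had 39.1, 37.6 and 35.5 FPKM with siRNA 2 against 5.54, 4.69 and 5.5 FPKM, a log2 fold change of 2.62 (SE 0.07, limma adjusted P = 1.89e-09). NDRG1, a stress-induced gene of differentiation, had 347, 347 and 354 FPKM against 101, 99 and 99.8 FPKM. In both genes every siRNA 2 library stood above every control library by a wide margin. The log2 fold changes of other members were 2.18 for ANGPTL4, 1.32 for CA12, 1.22 for BHLHE40, 1.2 for EPAS1, 1.14 for ANKRD37 and 0.66 for KDM3A, which encode a lipase inhibitor, a carbonic anhydrase, a repressor of the clock, the factor HIF-2α, an ankyrin repeat protein and a histone demethylase. The collagen hydroxylases P4HA1, P4HA2 and PLOD2 rose with log2 fold changes of 0.62, 0.54 and 0.62. HIF1A, which encodes HIF-1α itself, was not called, with 29.3, 28.8 and 28.3 FPKM against 28, 30.7 and 27.9 FPKM. VEGFA and CA9, common targets of the pathway, were not called, with log2 fold changes of 0.33 and 0.25. Those that fell were EGLN2, a prolyl hydroxylase that marks HIF-α, and VHL, which then sends it to the proteasome, with log2 fold changes of -0.94 and -0.44, VHL falling short of the fold limit after scaling. Counts in both lists were nearly equal after scaling, 16 and 2 for glycolysis and 17 and 1 for hypoxia.

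**Figure D2:**
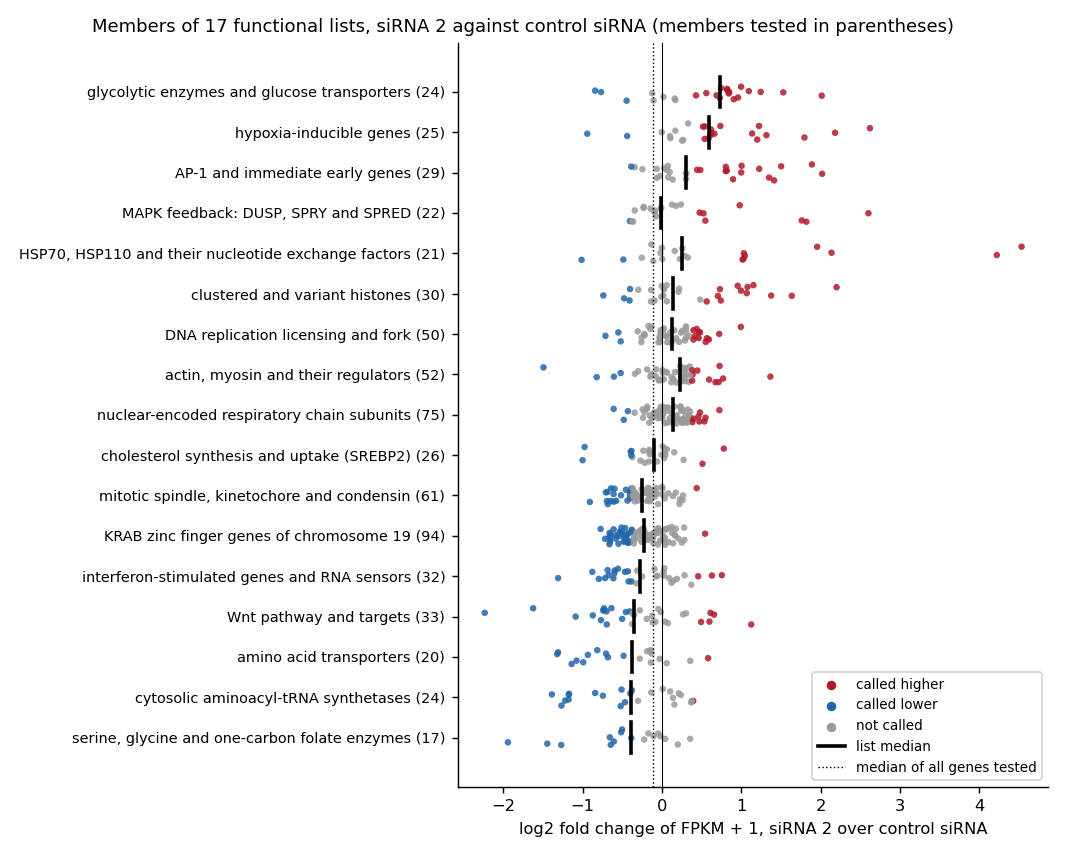
Log2 fold change (siRNA 2 over control siRNA, log2 of FPKM + 1) of each member of 17 lists, 1 point per gene, with red for genes called higher, blue for genes called lower and grey for the others. Black bars are list medians and the dotted line is the median of all genes at -0.11. Glycolysis (median 0.74) and hypoxia (0.59) lie highest, and serine, folate and tRNA synthetase genes (both -0.39) lowest.

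Immediate early genes often rose and rarely fell. Their products, AP-1 subunits and related factors, are made within minutes of growth factor or stress signals, and the DUSP phosphatases then shut the kinases off. Of 29 AP-1 and immediate early genes 14 rose and 1 fell (median 0.31 on the log2 scale). JUN had 225, 264 and 244 FPKM with siRNA 2 and 60.4, 56.3 and 61.7 FPKM with control siRNA, a log2 fold change of 2.02 (SE 0.07, limma adjusted P = 1.27e-08). FOS had 52.5, 47.6 and 48.2 FPKM against 16.3, 16.9 and 17.1 FPKM. Neither gene had overlapping libraries, and both were also called higher against siRNA 1, by 1.02 for JUN and 1.14 for FOS on the log2 scale. ZFP36, whose product speeds the decay of these short-lived mRNAs, also rose, with a log2 fold change of 1.89. Further log2 fold changes were 1.41 for KLF6, 1.35 for ATF3, 1.23 for ZFP36L1, 1.0 for FOSL2, 0.90 for NR4A1, 0.81 for FOSB, 0.80 for FOSL1 and 0.48 for JUNB. EGR1 and MYC were not called, with log2 fold changes of 0.31 and -0.25. IER5L fell, but with a log2 fold change of -0.39 that no longer passed after scaling. It is the 1 fall of the list, which became 2 without siRNA 2 library r1 and 0 without the other siRNA 2 libraries, the control library with no suffix or control library r2.

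Of 22 feedback genes of mitogen-activated kinases 7 rose (31.8%, above the background of 9.67%) and 1 fell (4.55%, below the background of 23.6%), and 7 and 0 after scaling. The other 14 were not called, and the median of -0.01 became 0.09 after scaling. DUSP1, the phosphatase of p38 and JNK, had 58, 52.7 and 50.5 FPKM against 8.46, 7.22 and 8.34 FPKM, a log2 fold change of 2.6 (SE 0.07, limma adjusted P = 1.40e-09), and is among the 10 genes with the highest rise. DUSP2 had 35.7, 34.7 and 30.8 FPKM against 9.65, 7.93 and 8.91 FPKM and DUSP5 99.5, 95.7 and 94.2 FPKM against 28.2, 28.2 and 26.8 FPKM. With siRNA 1 the log2 fold change of DUSP2 was 0.15, and siRNA 2 exceeded siRNA 1 by 1.67. DUSP6, which acts on ERK, went the other way with a log2 fold change of -0.40, and did not pass after scaling. The 1 fall of the list became 3 without siRNA 2 library r1 or that with no suffix, and 2 without control library r1 or that with no suffix.

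**Figure D3:**
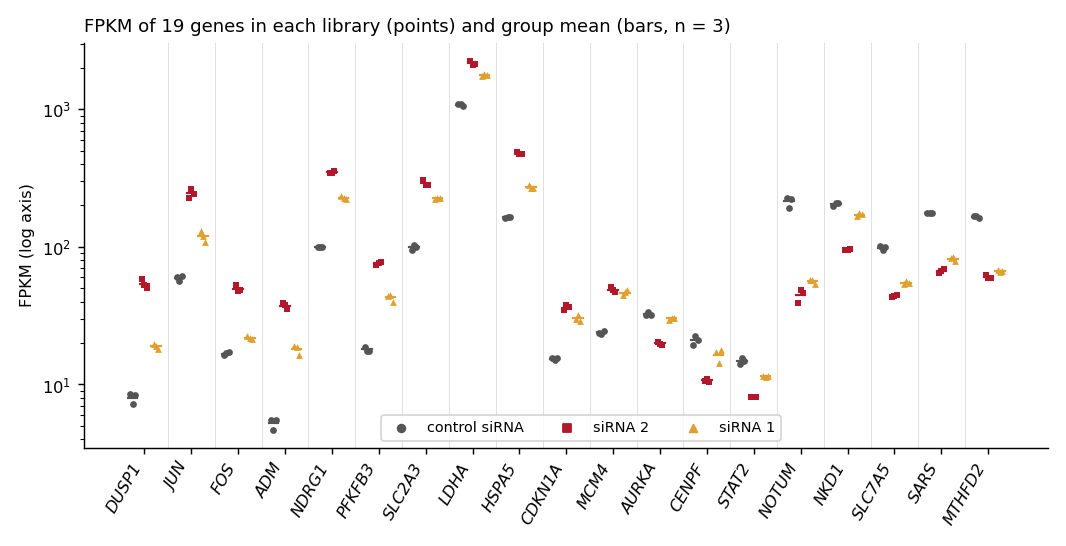
FPKM (log axis) of 19 genes in each library, with circles for control siRNA, squares for siRNA 2, triangles for siRNA 1 and short bars for group means (n = 3). The siRNA 2 libraries do not overlap the control libraries in any of these chosen genes, as for DUSP1 at 50.5 to 58 against 7.22 to 8.46 FPKM and NOTUM at 39.4 to 48.9 against 192 to 228 FPKM. Among all 11399 genes, the siRNA 2 libraries lay above all control libraries in 26.4% and below them in 48.4%.

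Several cytosolic chaperone genes rose. Chaperones of the HSP70 class fold client proteins with the help of DNAJ partners, nucleotide exchange factors and HSP90. Of 21 genes of the HSP70 and HSP110 families and their exchange factors 8 rose and 2 fell (median log2 fold change 0.26). Of 19 genes in the list of HSP90, its co-chaperones, small heat-shock proteins and HSF factors 8 rose and 3 fell (0.17). That list also held the mitochondrial chaperonin genes HSPD1, not called, and HSPE1, which rose. Both are counted again with the mitochondrial chaperones. HSPA6, a strictly inducible HSP70, had 3.47, 3.34 and 3.43 FPKM against 0.15, 0.1 and 0.16 FPKM, a log2 fold change of 1.96 (SE 0.07), and siRNA 2 exceeded siRNA 1 by 1.72. The constitutive HSPA8 had 1394 to 1499 FPKM with siRNA 2 against 696 to 728 FPKM, and the inducible HSP90 gene HSP90AA1 956 to 1016 FPKM against 353 to 373 FPKM. Their log2 fold changes were 1.02 for HSPA8 and 1.44 for HSP90AA1. HSF1, the factor that drives them, fell with a log2 fold change of -0.78, and so did the ligase gene STUB1, with -1.01. The fall of HSF1 did not pass after the GC correction.

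The DNAJ co-chaperones went in both directions. Of 38 tested, 5 rose and 10 fell (median -0.17), and 8 and 9 after scaling. Without siRNA 2 library r2, 8 rose. Partners of HSP70 in the cytosol supplied 4 of the rises, with log2 fold changes of 3.27 for DNAJB1, 1.38 for DNAJB4, 0.99 for DNAJA1 and 0.51 for DNAJA4. The members that fell included DNAJC14 and DNAJC10, a disulfide reductase of the endoplasmic reticulum (ER), with log2 fold changes of -1.04 and -0.54. Of 13 subunits of the chaperonin TRiC and prefoldin 4 rose and 0 fell, with log2 fold changes of 0.68 for TCP1, 0.55 for CCT2, 0.43 for CCT5 and 0.41 for CCT6A. The other 9 were not called.

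In the ER, several chaperone genes rose, and genes for the sensors of the unfolded protein response were not among those that rose. HSPA5, the ER member of the HSP70 family (BiP), had 488, 477 and 475 FPKM against 163, 165 and 165 FPKM, a log2 fold change of 1.54 (SE 0.03, limma adjusted P = 3.17e-10). All siRNA 2 libraries lay well above the control libraries, and siRNA 2 was called above siRNA 1 by 0.81. The lectin chaperone CALR, the oxidase ERO1A, the isomerase PDIA4 and the HSP90 of the ER, HSP90B1, followed with log2 fold changes of 0.66, 0.74, 0.61 and 0.49. Among the sensors and their factors, the log2 fold changes were -1.0 for ATF6B, -0.44 for XBP1 and -0.38 for ERN1, and those of XBP1 and ERN1 did not pass after scaling. Over the 34 genes of this list 7 rose and 3 fell (median 0.01), and 5 fell without control library r1. Of 44 proteasome genes 6 rose and 3 fell (median 0.17), and 5 fell without the control library with no suffix. The rises were led by the base subunit PSMD2 and the assembly factor POMP with log2 fold changes of 0.72 and 0.69. Of 25 ubiquitin genes and stress ligases 8 rose and 1 fell, among them the ubiquitin-activating enzyme UBA1 with a log2 fold change of 1.45.

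Promoters of the chaperone genes that rose are shown because HSF1 binds a repeated motif there. In RefSeq promoters of GRCh38.p14, from 250 bases before to 50 after the start of the gene, a heat-shock element was searched on both strands. It was taken as 3 alternating units, GAA, TTC and GAA or TTC, GAA and TTC, with any 2 bases between neighbouring units. The promoters of 9393 of the 11399 genes (82.4%) could be read and 27 (0.287%) held the motif. It was in 6 of 917 promoters of genes that rose (0.654%), in 2 of 2151 of genes that fell (0.093%) and in 4 of 20 of the genes of the 3 chaperone lists that rose. Whatever their call, 5 of 67 promoters of these lists (7.46%) held it. HSF1 is known to switch on cytosolic chaperones, so the shares in these lists are not independent of the choice. A match is a description and not a measured binding site. In the 4 stretches below, the motif is in capitals, within the strand of the gene.
HSPA6, chr1:161524458-161524486, plus strand: cggaaaggTTCGCGAAAGTTCgcggcggc
HSPA8, chr11:123062346-123062374, minus strand: gcgagcttGAAAGTTCCAGAAcgctgcgg
DNAJA1, chr9:33025268-33025296, plus strand: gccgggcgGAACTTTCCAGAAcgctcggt
CHORDC1, chr11:90223089-90223117, minus strand: cgcgaccgGAAAATTCGCGAAggttcctg

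Genes of amino acid synthesis, import and tRNA charging often fell and rarely rose. In the 17 enzymes of serine, glycine and folate metabolism 0 rose and 9 fell (median -0.39 on the log2 scale). MTHFD2, a mitochondrial folate enzyme, had 62.3, 59.3 and 59 FPKM against 167, 168 and 162 FPKM in control libraries, a log2 fold change of -1.45 (SE 0.03, limma adjusted P = 6.42e-10). The serine synthesis enzymes PSAT1 and PHGDH fell with log2 fold changes of -1.94 and -1.27, and SHMT2 and PSPH with -0.65 and -0.52. Among enzymes of asparagine, proline, aspartate and glutamate, 2 of 18 rose and 8 fell (median -0.32). Argininosuccinate synthase (ASS1), the proline enzymes PYCR1 and OAT, and the transaminases GOT1 and GPT2 had log2 fold changes of -1.83 for ASS1, -1.19 for PYCR1, -0.82 for OAT, -0.79 for GOT1 and -0.77 for GPT2. The proline enzymes ALDH18A1 and PRODH rose, with log2 fold changes of 0.42 and 0.57. Of 12 genes for the methionine cycle and transsulfuration 0 rose and 3 fell.

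Importers of amino acids were likewise lower, with 1 of 20 higher and 10 lower (median -0.38). SLC7A5, the large neutral amino acid carrier LAT1, had 43.5, 44.1 and 44.7 FPKM against 102, 94.4 and 99.3 FPKM, a log2 fold change of -1.14 (SE 0.03). The carriers of alanine and serine (SLC1A4), glycine (SLC6A9), glutamine (SLC38A1 and SLC1A5), cationic amino acids (SLC7A1) and cystine (SLC7A11) also fell, with log2 fold changes of -1.32 for SLC1A4, -1.31 for SLC6A9, -1.08 for SLC38A1, -0.71 for SLC1A5, -0.82 for SLC7A1 and -0.68 for SLC7A11. The taurine carrier SLC6A6 was the 1 that rose (0.58 on the log2 scale).

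The tRNA synthetases were counted apart for cytosol and mitochondria. Of 24 cytosolic enzymes and scaffold proteins 1 rose and 13 fell (median -0.39), with 2 that rose without siRNA 2 library r2 and 3 without control library r1. The seryl enzyme SARS had 64.6, 66.5 and 68.8 FPKM against 175, 177 and 176 FPKM, a log2 fold change of -1.39 (SE 0.03, limma adjusted P = 9.60e-10), and its libraries are far apart. Those of methionine, glycine, glutamine, alanine and cysteine had log2 fold changes of -1.27 for MARS, -1.22 for GARS, -1.18 for QARS, -1.17 for AARS and -1.17 for CARS. The aspartyl enzyme DARS rose with a log2 fold change of 0.39. Of 17 mitochondrial synthetases 1 rose and 4 fell (23.5%, near the background of 23.6%), with a median of -0.05 that became 0.05 after scaling. Their lowest log2 fold changes were -0.96 for SARS2 and -0.76 for PARS2, and CARS2 rose by 0.76.

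The regulators of this program were split. Of 23 genes of ATF4 and its stress partners 6 rose and 10 fell. ATF4 itself had 296, 294 and 299 FPKM against 367, 354 and 353 FPKM, all siRNA 2 libraries below the control libraries, and its log2 fold change of -0.27 was under the fold limit. The glutathione-degrading enzyme gene CHAC1 and TRIB3, an inhibitor of ATF4, fell with log2 fold changes of -2.7 and -1.89. The other falls had log2 fold changes of -1.82 for ADM2, -1.11 for JDP2, -1.1 for ATF5, -0.97 for STC2, -0.80 for CEBPB, -0.64 for CTH, -0.48 for SESN2 and -0.48 for CEBPG, of which CEBPB and SESN2 did not pass after the GC correction and CEBPG not after scaling. The 6 that rose had log2 fold changes of 1.35 for ATF3, 1.07 for PPP1R15A, 0.80 for DDIT3, 0.75 for GDF15, 0.65 for DDIT4 and 0.56 for EIF2S1, and all of them but EIF2S1 were also called above siRNA 1. Of the lists on amino acids and ATF4, the direction of the medians was the same after scaling and after the GC correction for serine and folate enzymes, transporters, cytosolic synthetases and the ATF4 partners.

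ATF4 binds with C/EBP partners to a composite element, so promoters of genes in these lists were searched for TGATGNAA on both strands. It was found in 141 of 9393 promoters (1.5%), in 39 of 2151 of genes that fell (1.81%) and in 14 of 917 of genes that rose (1.53%). In the 5 lists on ATF4 and amino acids it was in 15 of 83 promoters (18.1%), and in 12 of the 42 whose genes fell (28.6%). The lists were drawn up from known ATF4 targets, so this share is not independent of the choice. In the stretches below (GRCh38.p14, RefSeq) the match is in capitals and reads TTGCATCA where it lies on the opposite strand.
CHAC1, chr15:40953254-40953277, plus strand: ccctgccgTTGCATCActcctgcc
ASNS, chr7:97872461-97872484, minus strand: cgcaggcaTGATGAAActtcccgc
MARS, chr12:57488056-57488079, plus strand: ggttccggTTGCATCAgcgaggga
AARS, chr16:70289678-70289701, minus strand: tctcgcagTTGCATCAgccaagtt
CARS, chr11:3057410-3057433, minus strand: ggcggcggTTGCATCAgattctag
SLC38A1, chr12:46266505-46266528, minus strand: gacccgaaTGATGAAAagggatca
The log2 fold changes of these genes were -2.7 for CHAC1, -2.44 for ASNS, -1.27 for MARS, -1.17 for AARS, -1.17 for CARS and -1.08 for SLC38A1. ATF3, with a match too, rose.

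Ribosomal protein genes and translation factors were seldom called. Of 79 cytosolic ribosomal protein genes 2 rose and 9 fell (11.4%, below the background of 23.6%), and 3 and 5 after scaling, with a median of -0.16 with siRNA 2 and -0.30 with siRNA 1. The members that fell by most were RPL3, RPS9 and RPS2, with log2 fold changes of -0.75, -0.71 and -0.65, and RPL39 rose by 0.62. Without siRNA 2 library r1 or control library r1, 1 rose. Of 43 initiation and elongation factors 2 rose and 8 fell (18.6%, also below the background), and 2 and 5 after scaling, led by the GTPase activator EIF5, the β subunit of eIF2 (EIF2S2) and the translocase EEF2, with log2 fold changes of -1.03, -0.84 and -0.69. Of 39 genes of ribosome assembly 3 rose and 12 fell (30.8%, median -0.11), 4 and 9 after scaling, and 7 of these 39 were called below siRNA 1. The assembly factors PPAN, RRS1 and BYSL and the nucleolar NOP56 are among those 7, with log2 fold changes against control of -1.78, -0.75, -0.62 and -0.56. PPAN lies beside a gene with which it forms a readthrough transcript, so its value is uncertain. The nucleolar chaperone NPM1 fell with a log2 fold change of -0.52, and RRP12 and EBNA1BP2 rose with 0.66 and 0.62. Of 76 genes of mitochondrial ribosomes 8 rose (10.5%, near the background of 9.67%) and 9 fell (11.8%, below the background of 23.6%). After scaling 13 rose and 5 fell.

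Nuclear-encoded subunits of the respiratory chain had few calls, mostly upward. Of 75, 8 rose and 3 fell (median 0.14), and after scaling 21 rose and 1 fell. UQCR10 of complex III and NDUFA12 of complex I had log2 fold changes of 0.72 and 0.55, and ATP5G1, a rotor subunit of the ATP synthase, 0.54. In the tricarboxylic acid cycle and its pyruvate entry 3 of 30 rose and 3 fell. The pyruvate dehydrogenase kinases were split, with log2 fold changes of 0.59 for PDK1 and 0.48 for PDK3 and -0.85 for PDK2, and the cytosolic dehydrogenase IDH1 fell by 0.85 on the log2 scale. The 13 genes of the pentose phosphate pathway and NADPH held 0 rises and 3 falls (1 after scaling), including PGD with -0.65. Of 37 genes of fatty acid oxidation and the peroxisome 3 rose and 9 fell, a share of 24.3% that is the background, and after scaling 6 rose and 6 fell. The lowest were the peroxisome assembly genes PEX10 and PEX16 and the dehydrogenase ACADS, with log2 fold changes of -1.27, -1.13 and -0.89.

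Lipid synthesis showed no common direction. Of 26 genes for cholesterol synthesis and uptake 2 rose and 5 fell, 3 and 2 after scaling, and 3 fell without the control library with no suffix. The median of -0.11 became 0.04 after the GC correction. The sterol oxidase MSMO1 and the sterol sensor INSIG1 rose, with log2 fold changes of 0.78 and 0.51, while the reductase TM7SF2 and the decarboxylase MVD fell, with -1.0 and -0.98. Of 24 genes for fatty acid synthesis 2 rose and 5 fell, and 2 and 2 after the GC correction. ACLY, which makes cytosolic acetyl-CoA, rose with a log2 fold change of 0.92, and the regulator SREBF1 fell with -0.74. APOE, a target of liver X receptors, had 3.52, 5.76 and 4.69 FPKM against 16.3, 14.6 and 15.7 FPKM, a log2 fold change of -1.57.

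Genes of DNA replication rose more often than they fell, and genes of mitosis the reverse. Replication licensing loads the MCM helicase on DNA in G1, and the mitotic genes peak later, in G2 and M. Of 50 replication genes 12 rose and 3 fell (median 0.12), while of 61 genes of the mitotic spindle, kinetochore and condensin 1 rose and 19 fell (median -0.26). After scaling the counts were 18 and 3 for replication and 1 and 12 for mitosis. MCM4, a subunit of the helicase, had 50.8, 48.3 and 47 FPKM against 23.8, 23.5 and 24.6 FPKM, a log2 fold change of 0.99 (SE 0.04, limma adjusted P = 2.56e-08). The loader CDC6, the flap nuclease FEN1, the helicase subunit MCM6 and the sliding clamp PCNA rose with log2 fold changes of 0.72, 0.59, 0.55 and 0.47. CDT1, the other loader of the helicase, fell with -0.71, though not after the GC correction. The kinase AURKA had 20.3, 19.8 and 19.5 FPKM against 31.8, 33.6 and 32.1 FPKM, a log2 fold change of -0.68 (SE 0.03, limma adjusted P = 8.90e-08). The groups did not overlap, and with siRNA 1 the log2 fold change of AURKA was -0.10. The kinetochore protein CENPF, the kinesins KIF14, KIF20A and KIF20B, the phosphatase CDC25B and the factor FOXM1 had log2 fold changes of -0.91 for CENPF, -0.71 for KIF14, -0.61 for KIF20A, -0.69 for KIF20B, -0.70 for CDC25B and -0.65 for FOXM1. Common proliferation markers of late phases were under the fold limit, with log2 fold changes of -0.18 for MKI67, -0.36 for TOP2A and -0.34 for CCNB1. Of the 61 mitotic genes, 17 were called below siRNA 1 and 0 above it, where 5.32% of all genes were below and 1.75% above. After scaling those counts were 10 and 0.

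**Figure D4:**
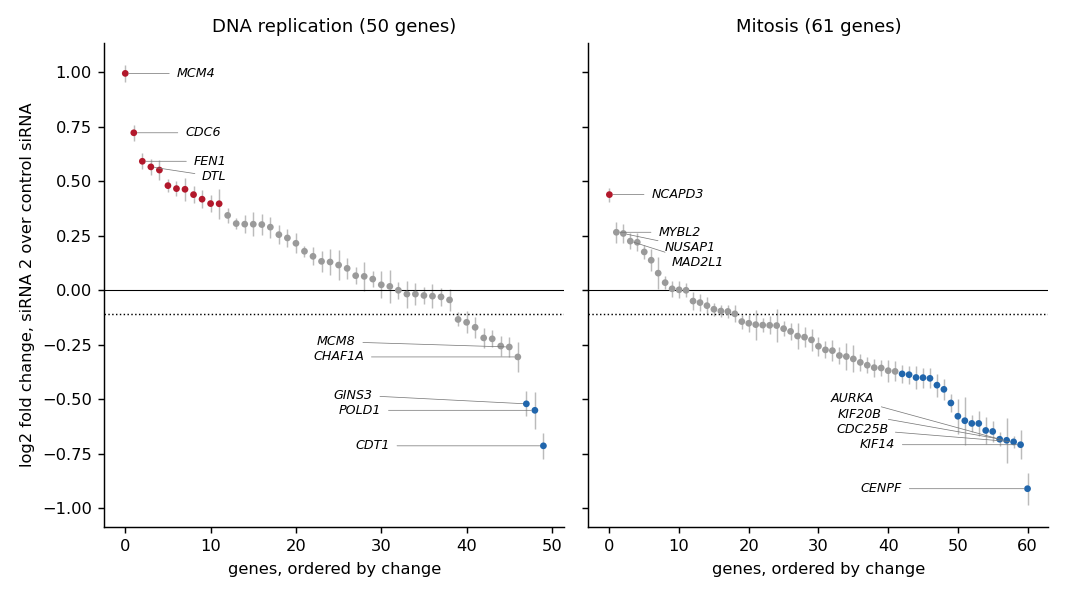
Log2 fold change (siRNA 2 over control siRNA, with standard error) of 50 DNA replication genes and 61 mitotic genes, each ordered by its change along the horizontal axis. Red marks genes called higher, blue genes called lower and grey the others, and the dotted line is the median of all genes at -0.11. Replication genes reach 0.99 for MCM4, while 19 mitotic genes are called lower, down to -0.91 for CENPF.

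Regulators of G1 rose and fell. Of 24 cyclin, kinase and inhibitor genes 8 rose and 6 fell (median 0.09). CDKN1A, the p21 inhibitor of cyclin-dependent kinases, had 34.8, 37.6 and 36.3 FPKM against 15.7, 15.1 and 15.5 FPKM, a log2 fold change of 1.18 (SE 0.04). The inhibitor CDKN1C and the MAX partner MXD1 rose by 1.1 and 1.21, and the S-phase cyclins CCNE1 and CCNE2 by 0.90 and 0.49 on the log2 scale. The G1 kinase CDK4, the inhibitor CDKN2B and the MAX partners MXD3 and MXD4 fell, with log2 fold changes of -0.63, -0.57, -1.48 and -0.66. Of 17 E2F and RB genes 1 rose and 2 fell, or 3 and 2 after scaling, and the 1 rise became 2 without the siRNA 2 library with no suffix and 0 without siRNA 2 library r1 or control library r1. Of 33 genes for nucleotide synthesis 3 rose and 2 fell, including the reductase subunit RRM2 at 0.74 and the guanine nucleotide enzyme IMPDH2 at -1.13. Of 49 genes of the DNA damage response 2 rose and 10 fell (20.4%, below the background), but 8 rose and 6 fell after scaling and 6 and 4 after the GC correction. The 2 rises became 1 without siRNA 2 library r2 and 4 without control library r1.

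Histone genes were more often higher than lower. Of 30 clustered and variant histone genes 12 rose and 4 fell (median 0.14), and 2 fell without the control library with no suffix. The linker histone gene HIST1H1E had 6.5, 5.05 and 4.85 FPKM against 0.32, 0.34 and 0.54 FPKM, a log2 fold change of 2.2 (SE 0.11). The core histone genes HIST1H2AE, HIST2H2BF, HIST1H2BC and HIST2H2BE had log2 fold changes of 1.64, 1.38, 1.15 and 0.95. Of the 30, 11 were called above siRNA 1 and 0 below. Replication-dependent histone mRNAs end without a poly(A) tail, and whether poly(A) RNA was selected is not given in the sources used here. The genes are also near copies of each other, so reads may be divided between them.

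Among chromatin regulators, zinc finger repressors fell more often than all genes did, and Polycomb genes did so only before scaling. Polycomb complexes silence developmental genes by modifying histones H2A and H3. Of 29 Polycomb genes 1 rose and 10 fell (34.5%, above the background of 23.6%, median -0.24). After scaling 2 rose and 5 fell, and the GC correction gave the same counts. These falls are near the shares of all genes, 17.5% after scaling and 15.5% after the GC correction. Without siRNA 2 library r2, or the control library with no suffix, 2 rose. RING1, the H2A ubiquitin ligase, had 5.13, 6.28 and 6.28 FPKM against 14.7, 13.9 and 15.1 FPKM, a log2 fold change of -1.18. The chromobox genes CBX2 and CBX8 had log2 fold changes of -0.92 and -0.78, whereas the methyltransferase gene EZH2 was not called, with -0.24. Of 94 KRAB zinc finger genes of chromosome 19, which encode repressors of transposable elements, 31 fell (33.0%) and 1 rose, and after scaling 21 fell and 1 rose. The falls were small and alike, from -0.77 for ZNF302 and -0.72 for ZNF181 to -0.38 for ZNF440 on the log2 scale. The median was -0.23 with siRNA 2 and -0.04 with siRNA 1, and 11 genes were called below siRNA 1. Genes of SWI/SNF, NuRD and histone acetylation had 3 rises and 2 falls in 42, with a log2 fold change of 1.46 for HDAC9 and of -1.02 for SMARCC2.

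Lists of RNA processing and transcription had falls near or below the background of 23.6%. Of 39 genes of SR proteins, hnRNPs and CLK kinases, which choose splice sites, 2 rose and 11 fell (28.2%, median -0.16), and 2 and 8 after scaling. HNRNPA1, SRSF3, SRSF6 and the kinase CLK2 had log2 fold changes of -0.85, -0.68, -0.60 and -1.1. Of 31 genes of RNA interference and microRNA processing 2 rose and 3 fell (9.68%), including the microprocessor subunit DGCR8 at -0.67. Of 44 genes of Mediator, RNA polymerase II and elongation 3 rose and 7 fell (15.9%), or 5 and 4 after scaling and 8 and 5 after the GC correction, including the elongation kinase CDK9 and its inhibitor HEXIM1, with -0.85 and -0.82. Without control library r2, 5 rose.

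Interferon-stimulated genes, which long duplex RNA can switch on, were more often lower than higher. Of 32 such genes and RNA sensors 3 rose and 14 fell (median -0.28), and 5 and 11 after scaling. STAT2, a subunit of the interferon-activated factor ISGF3, had 8.13, 8.05 and 8.11 FPKM against 14.1, 15.5 and 14.8 FPKM, a log2 fold change of -0.80 (SE 0.04, limma adjusted P = 9.69e-08). IRF9, its DNA-binding partner, fell with -0.72. IFI35, UBE2L6, PARP9, BST2 and the adaptor MAVS had log2 fold changes of -1.31 for IFI35, -0.88 for UBE2L6, -0.69 for PARP9, -0.67 for BST2 and -0.55 for MAVS. The exonuclease ISG20, OASL and MX2 rose with 0.75, 0.63 and 0.46. In class I antigen presentation 2 of 16 rose and 7 fell (median -0.25, and -0.34 with siRNA 1). The peptide-loading genes TAPBP and TAP2 and HLA-F had log2 fold changes of -1.01, -0.57 and -0.96, the coactivator NLRC5 rose with 0.72, and B2M was not called (0.14). HLA genes are polymorphic near copies, which makes their values uncertain. Of 27 NF-kB genes 5 rose and 6 fell, and 5 and 2 after the GC correction. The targets CXCL8, TNFAIP3 and BIRC3 had log2 fold changes of 1.18, 0.76 and 0.72, and the kinase genes IKBKE and IKBKB fell with -0.73 and -0.57.

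Genes of the Wnt pathway were more often lower, feedback inhibitors among them. Of 33 pathway genes and targets 5 rose and 14 fell (median -0.35, and -0.09 after the GC correction, with 5 and 10 called). NOTUM, a secreted deacylase that inactivates Wnt proteins, had 39.4, 48.9 and 45.9 FPKM with siRNA 2 and 228, 192 and 222 FPKM with control siRNA, a log2 fold change of -2.24 (SE 0.08, limma adjusted P = 1.59e-08). NKD1, an inhibitor of Dishevelled, had 95.6, 95.7 and 96.6 FPKM against 198, 208 and 209.9 FPKM. The groups did not overlap for either gene, and NKD1 was also called below siRNA 1, by -0.83 on the log2 scale. SP5, a repressor of the pathway's targets, the R-spondin receptor LGR5 and the receptor ligase ZNRF3 fell with log2 fold changes of -1.62, -0.77 and -0.73. ASCL2, a stem cell factor that Wnt signals maintain, is not in the list and is named because it is among the 20 largest falls. It had 7.04, 7.93 and 7.49 FPKM against 32.3, 27.8 and 28.4 FPKM. AXIN2, a widely used target, was not called, with -0.05, and neither was the β-catenin gene CTNNB1, with -0.01. RNF43, a ligase like ZNRF3, rose with 0.60, as did the acyltransferase PORCN, the receptor FZD5 and the ligand WNT7B with 1.13, 0.66 and 0.61.

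Other signaling pathways held changes of single members. Among 25 Notch genes 4 rose and 5 fell (6 and 3 after the GC correction), with a median of -0.15 that became 0.09 after the GC correction. The ligand JAG1 and the targets HES1 and HEY1 rose with log2 fold changes of 0.86, 0.80 and 0.42, and HES6 and the glycosyltransferase LFNG fell with -1.18 and -0.99. Among 31 TGF-β and BMP genes 5 rose and 5 fell, and the targets ID2, ID3 and SMAD7 rose with 0.97, 0.77 and 0.69. Of 28 receptor tyrosine kinases and adaptors 5 rose and 7 fell, but 7 and 1 after the GC correction. The receptors ERBB3 and DDR1 fell with -1.06 and -0.58, DDR1 not after the GC correction, and FGFR1 and EGFR rose with 0.58 and 0.51. Of 33 PI3K and mTOR genes 6 rose and 7 fell, and 8 and 2 after the GC correction, among them the kinase SGK1 and the factor FOXO1 at 0.79 and 0.68 and the mTOR inhibitor DEPTOR at -0.73.

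The genes that the study measured by other means were also examined. MARK4, a microtubule affinity regulating kinase, had 6.17, 6.64 and 6.82 FPKM against 9.88, 9.48 and 9.79 FPKM and fell, but its log2 fold change after the GC correction, -0.30, was under the fold limit. WWTR1, which encodes the Hippo effector TAZ, had 10.6, 9.97 and 10.6 FPKM against 5.27, 5.43 and 5.63 FPKM, a rise with a log2 fold change of 0.82 (SE 0.04, limma adjusted P = 9.83e-08). YAP1 had 37.3, 33.9 and 34.7 FPKM against 41.3, 44.7 and 43.2 FPKM, lower in all 3 siRNA 2 libraries but with a log2 fold change of -0.28, under the fold limit. CCND1, BAX and YY1 were not called either, with 0.24, -0.28 and -0.22, and BCL2 stayed at 0.07 to 0.17 FPKM, below the filter. Of 25 Hippo pathway genes 2 rose (8%) and 4 fell (16.0%), or 3 and 2 after scaling, and of 19 YAP and TAZ targets 3 rose (15.8%) and 4 fell (21.1%), or 7 and 3 after scaling. In the target list NUAK2 and DOCK5 rose with 0.81 and 0.70 and AJUBA and FJX1 fell with -0.80 and -0.78.

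Genes of the actin cytoskeleton and of adhesion were more often higher. Of 52 genes of actin, myosin and their regulators 10 rose and 4 fell (median 0.22), and 19 and 4 after scaling. The filamin FLNA, which cross-links actin, had a log2 fold change of 1.37, and the membrane linker MSN of 0.59. MYL9, the regulatory light chain of contractile myosin, had 3.58, 3.26 and 4.04 FPKM against 12.2, 12.1 and 11.8 FPKM, a log2 fold change of -1.5. Of 30 integrin, laminin and basement membrane genes 7 rose and 2 fell, including the integrins ITGA5 and ITGA2 and the laminin chain LAMA3 at 0.98, 0.78 and 0.72. Of 23 markers of the epithelial-mesenchymal transition 5 rose and 5 fell. SNAI2 and SNAI1, repressors of epithelial genes, rose with 1.55 and 1.39, and the splicing regulators ESRP1 and ESRP2 and the claudin CLDN7 fell with -0.72, -1.0 and -1.02, while the claudin CLDN4 and the desmosomal DSP rose with 0.97 and 0.50.

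Identity genes changed in both directions. Of 17 luminal and apocrine factors 5 rose and 3 fell. The secreted TFF1 had 9.71, 7.68 and 6.88 FPKM against 1.76, 2.46 and 2.14 FPKM, and AGR2, ELF3 and MUC1 rose with log2 fold changes of 1.31, 1.08 and 0.75. ESRRA, an orphan nuclear receptor of energy metabolism, fell with -1.2. Of 13 keratin genes 3 rose and 3 fell, and KRT6A, a keratin of stressed epithelium with near copies, had 11.5, 12 and 11.7 FPKM against 1.36, 1.18 and 1.74 FPKM.

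Single genes of the clock, of metal binding and of iron uptake were among the 20 largest rises. NR1D1, the repressor REV-ERBα of the circadian clock, had 35.8, 35.5 and 36.6 FPKM against 9.35, 8.07 and 9.05 FPKM, a log2 fold change of 1.91 (SE 0.05). Of 17 clock genes 6 rose and 2 fell, 1 without siRNA 2 library r2 or control library r2, and NFIL3 and PER1 rose with log2 fold changes of 1.36 and 0.81. Of 23 metallothionein and zinc transporter genes 7 rose and 4 fell (2 without siRNA 2 library r1), with MT1X at 216, 207 and 206 FPKM against 53, 47.7 and 55.1 FPKM. MT2A and the zinc exporter SLC30A1, which the same metal-sensing factor controls, rose with 0.92 and 0.71. The metallothionein genes are near copies, so reads may be divided between them. Of 29 NRF2 targets 6 rose and 7 fell (8 and 4 after scaling), and of 29 genes of glutathione, peroxide and ferroptosis 7 rose and 3 fell. TFRC, the transferrin receptor that imports iron, had 148, 139 and 137 FPKM against 33.4, 36.2 and 34.9 FPKM, a log2 fold change of 1.99 (SE 0.04), the largest of that list. Of 35 genes of the BCL2 family and caspases 6 rose and 7 fell, and 9 and 6 after scaling. PMAIP1 (NOXA) and BAK1, which promote death, and MCL1, which prevents it, rose with 1.1, 0.58 and 0.44, and the death genes BBC3 (PUMA), CASP8 and FADD fell with -1.2, -0.50 and -0.62. Of 40 autophagy genes 1 rose and 11 fell (2 rose without siRNA 2 library r1 or control library r1), and 4 and 9 after scaling, with a median of -0.07 that became 0.02 after scaling, and the initiators BECN1 and RB1CC1 fell with -0.53 and -0.50. Of 52 lysosomal genes 9 rose and 8 fell (11 and 3 after scaling), and the lysosomal sulfatase IDS rose with 1.1 while the iduronidase IDUA fell with -1.01. Of 53 genes of N-glycosylation and GPI anchors 4 rose and 10 fell (18.9%, below the background).

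Among the 20 largest rises that passed with an adjusted P of at most 0.05 and without overlapping libraries, 15 belong to a list, and so do 8 of the 20 largest falls. The lists held 20.7% of the genes tested. They were chosen with earlier results of these data known, so this overlap is partly built in. The rises outside the lists include CSF2, the cytokine GM-CSF, at 29.9, 29.3 and 30 FPKM against 2.34, 2.28 and 3.05 FPKM, the kinase gene PIM1 at 46.1, 47.7 and 48.2 FPKM against 11.7, 10.7 and 11.1 FPKM and the gastrin gene GAST at 15.5, 15.5 and 15.9 FPKM against 3.5, 3.91 and 1.88 FPKM. WFDC3 and SLAMF9 complete them, with log2 fold changes of 3.08 and 2.45. Of the falls outside the lists, INHBE, an activin subunit gene that ATF4 activates, had 1.22, 1.15 and 1.31 FPKM against 9.62, 9.44 and 9.48 FPKM. PCK2, the mitochondrial enzyme that makes phosphoenolpyruvate, had 8.98, 9.82 and 9.86 FPKM against 48.5, 44.2 and 46.4 FPKM. Both are lower than control in every library. NOXA1, an activator of NADPH oxidase, and FGF3, a growth factor gene, fell with -2.27 and -1.79, and ROGDI, RPUSD1, DNPH1, PHYKPL, BICDL2 and TAF15 with -2.6 for ROGDI, -2.06 for RPUSD1, -1.99 for DNPH1, -1.92 for PHYKPL, -1.83 for BICDL2 and -1.8 for TAF15. PABPN1, which shares sequence with a readthrough gene, is listed at 0 in the siRNA 2 libraries and at 8.66, 6.81 and 11.8 FPKM in control libraries.

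The siRNAs were then compared directly, since their comparisons with control share the control libraries. In the contrast of siRNA 2 with siRNA 1, 199 genes (1.75%) were higher and 606 (5.32%) lower with siRNA 2, and the median of all genes was -0.08. Scaling turned this balance to 393 higher (3.45%) and 262 lower (2.3%), so only differences that passed both ways are named here. Of the 20 largest rises against control, 18 were called above siRNA 1 and 0 below it. Of the 20 largest falls, 7 were called below siRNA 1 and 0 above it. These rises and falls were picked by their siRNA 2 values, which this contrast uses again. The counts were therefore partly set by the choice, and no conclusion is drawn from them. Immediate early genes had 14 of 29 above siRNA 1 and 0 below, hypoxia-inducible genes 8 of 25 and 1, glycolysis 5 of 24 and 1, and histones 11 of 30 and 0. With scaling these counts were 15 and 0, 13 and 0, 11 and 1, and 15 and 0. HK2, the first enzyme of glycolysis, had 57.6, 58.7 and 59.6 FPKM with siRNA 2 and 40.8, 39.5 and 38 FPKM with siRNA 1, a difference of 0.56 on the log2 scale (SE 0.04, limma adjusted P = 8.15e-06). FOSB and KLF4 were above siRNA 1 by 0.45 and 0.41 on that scale. The KRAB zinc finger and mitotic lists were the opposite, with 11 of 94 and 17 of 61 below siRNA 1, and 5 and 10 after scaling. CENPF had 10.5, 11 and 10.5 FPKM with siRNA 2 and 17.1, 14.4 and 17.8 FPKM with siRNA 1, a difference of -0.57 (SE 0.07, limma adjusted P = 3.21e-04). In the amino acid lists few differences were called: of the 24 cytosolic synthetases 0 were above and 1 below siRNA 1, of the 20 transporters 0 and 1, and of the 17 serine and folate enzymes 0 and 2. SARS, for instance, had 64.6, 66.5 and 68.8 FPKM with siRNA 2 and 82.9, 84.6 and 79.2 FPKM with siRNA 1.

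**Figure D5:**
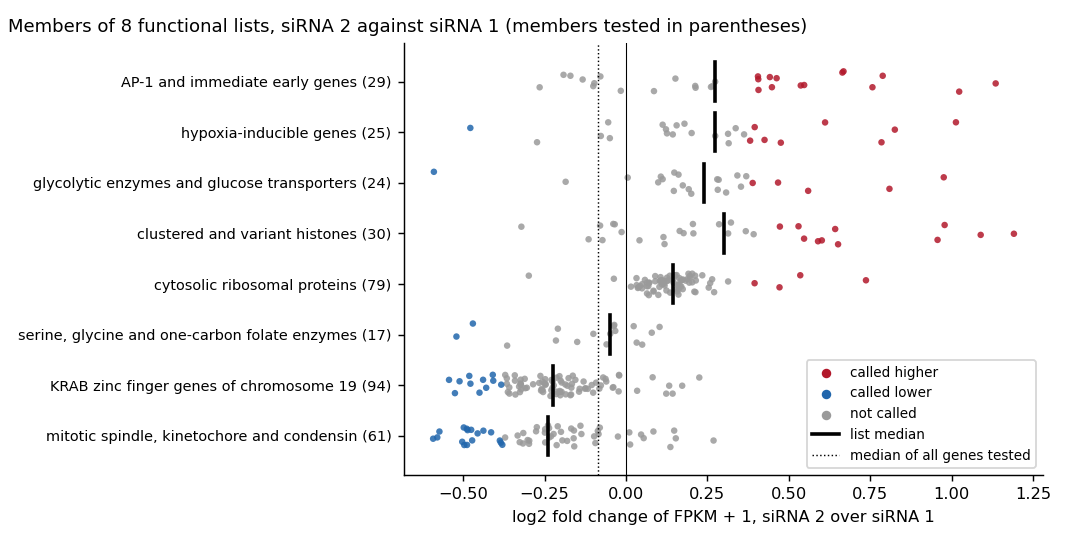
Log2 difference between siRNA 2 and siRNA 1 (log2 of FPKM + 1) for the members of 8 lists, 1 point per gene, with red for genes called higher with siRNA 2, blue for genes called lower and grey for the others. Black bars are list medians and the dotted line is the median of all genes at -0.08. The medians of immediate early, hypoxia, glycolysis and histone genes lie to the right of this line, and those of KRAB zinc finger and mitotic genes to its left.

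Finally, genes were grouped by matches to the seeds of siRNA 2 in their 3′ UTR. The longest 3′ UTR among the GENCODE transcripts of a gene on GRCh38 was taken, for 11341 of the 11399 genes (99.5%). For the antisense strand, whose seed UAUUAUU pairs with AATAATA in the DNA sequence, 8887 genes had no match, 1610 had 1 and 844 had 2 or more. The share that fell was 25.7%, 17.3% and 14.1% in this order, and the median log2 fold change was -0.12, -0.08 and -0.08. The share was thus lower in genes with matches, a difference that was not tested. The UTRs with matches were also longer, with medians of 1314, 2658 and 4208 bases, and the genes less GC-rich, with median GC contents of 51.6%, 42.8% and 40.3%. After the GC correction the medians were 0.00, -0.03 and -0.03. Against siRNA 1 the medians were -0.07, -0.13 and -0.13 on the log2 scale, and within the longest UTRs alone -0.12, -0.14 and -0.14. The sense strand has the seed GACCCUG, which pairs with CAGGGTC. For it, the shares that fell were 23.4% without a match, 24.9% with 1 and 25.3% with 2 or more. With UTRs split by length, the share climbed with matches in each class. It was 28.6%, 34.1% and 36.4% in the shortest UTRs, the last from 11 genes. In middle and longest UTRs it was 24.1%, 29.4% and 31.9%, and 15.7%, 20.3% and 23.5%. GC content climbed too, with medians of 42.8%, 47.9% and 50.9% in the longest UTRs. There the median log2 fold changes after the GC correction were -0.02, -0.06 and -0.02. These are descriptions with no test, and the part of seed pairing in the results was not tested.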

How the data were processed

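The authors deposited FPKM per gene in 1 table, and the libraries had been run on the BGISEQ-500 sequencer. The submitters' processing notes name Bowtie2 version 2 and the build GRCh37.p13, and the counting tool is not given in the sources used here. The table gives each FPKM column a second time, unchanged, and only 1 copy was read. A further 4 rows hold no values. The log2 ratios, P values and q values of the authors' own comparisons are in the table too and were not used.

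Samples were grouped by their labels. Known and predicted rows whose mean over the 6 libraries reached 1 FPKM (12867) were fitted as log2(FPKM + 1) with limma 3.58.1 (lmFit, and eBayes with a trend) in R 4.3.3, with all 9 libraries in 1 fit and the group as the only factor. The limits for a call were a 1.3-fold change and an unadjusted P of 0.05, and adjusted P values are Benjamini-Hochberg values over the 12867 rows. Only known genes are reported. Of the 1468 predicted rows tested, 291 were higher and 333 lower. The contrast of siRNA 2 with siRNA 1 came from the same fit. For scaling, each library was divided by its median ratio to the mean of all libraries, and for GC content a loess curve with a span of 0.5 was subtracted. The fit was tested on simulated data for siRNA 2 against control, with 200 of 12867 rows changed: 198 (99%) were recovered and 34 unchanged rows were called. The changed rows all had a control mean of at least 5 FPKM and a change of at least 2-fold. The recovery of smaller changes, and of weaker genes, was therefore not tested. The simulated noise was independent between libraries and held no shift in scale or GC content, which the real libraries show.

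FPKM hold no counts. The depth was estimated from the steps of 109 to 129 weakly expressed genes per library, where 91.3 to 98.2% of the values lay within 0.2 fragment of a whole number, and in simulated libraries the estimate had an error of at most 1.92%. Each group has a library without a suffix, an r1 and an r2, and values per library are given in this order. Named genes were the 20 largest rises and 20 largest falls among called genes with an adjusted P of at most 0.05 and libraries that do not overlap, any member of a functional list, with the largest changes and those that define the pathway first, and the genes that the study measured otherwise. The markers CDH1 and EPCAM were named after their values were seen. The members and lists were chosen with earlier results of these data known. List names matched symbols of the table, 25 of them through a synonym in RefSeq. Promoters come from RefSeq (GRCh38.p14) and 3′ UTRs from the GENCODE annotation of GRCh38, and neither was combined with coordinates of the table. Tables were made in Python 3.11.15 with pandas 2.3.3 and numpy 2.4.6, and figures with matplotlib 3.10.9. Alternatives were another added value, other filters and fold limits, an adjusted P, fewer libraries in the fit, a replicate block, each library left out, scaling and a GC correction. The level of LINC00673 and some further genes are not reported here.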

Additional observations from a re-analysis of the deposited data

How the results depend on the processing

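The counts of called genes moved with the fold limit, the filter, the corrections and, against siRNA 1, the added value. A limit of 2 left 151 genes higher and 313 lower with siRNA 2 against control, and no limit gave 3010 and 5495. The GC correction gave 1656 and 1759, and a minimum of 5 FPKM left 1741 lower. For siRNA 2 against siRNA 1, a limit of 2 left 15 higher and 4 lower, no limit gave 1444 and 4724, scaling 393 and 262, and the GC correction 306 and 269. Adding 0.1 FPKM in place of 1 gave 1121 lower than siRNA 1, and a minimum of 5 FPKM gave 316. The number of genes tested falls with that minimum, and for the other settings the cause was not tested. With each library left out in turn, 1096 to 1117 genes were higher and 2607 to 2761 lower than control, and 178 to 267 were higher and 571 to 663 lower than siRNA 1. A replicate block by label gave 1103 and 2687 against control. Between siRNA 2 and control, the deviations of libraries with the same label from their group means had r = -0.25, -0.0776 and 0.0308 for the 3 labels. Pairs with different labels had r = -0.192 to 0.238. Deviations within a group of 3 are tied to each other, so these values cannot show whether libraries with the same label are linked. For the 46 genes of the naming rule that were tested beside the list members, 861 of 868 values under the alternatives kept direction and call. The exceptions were WWTR1 and MARK4 with a fold limit of 2, MARK4 after the GC correction, and YAP1, BAX, CCND1 and YY1, which passed with no fold limit. None turned its direction. The alternatives for siRNA 2 against siRNA 1, and leaving out siRNA 1 libraries, were chosen after seeing the data. At this depth genes near 1 FPKM rest on few fragments, and the added value of 1 FPKM shrinks their fold changes.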

Other observations

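Lists on transport and organelles not described above had few calls in either direction. Of 53 nuclear pore and karyopherin genes 5 rose and 9 fell (9 and 6 after scaling). The tRNA exporter XPOT fell with a log2 fold change of -0.81, and the scaffold nucleoporin NUP155 rose with 0.75. Of 51 genes of COPI, COPII and Golgi traffic 6 rose and 4 fell, with the translocon subunits SEC61G and SEC61A1 moving in opposite directions at 0.99 and -0.77. Of 46 endosome, ESCRT and retromer genes 4 rose and 5 fell (7 and 4 after scaling). Among 34 mitochondrial chaperones, import proteins and proteases 6 rose and 7 fell (8 and 7 after scaling): the co-chaperonin HSPE1 rose with a log2 fold change of 1.07 and HSPA9, the HSP70 of the mitochondrion, fell with -0.72.

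Of 17 genes of creatine and energy sensing 2 rose and 5 fell, and 4 of the 17 were called below siRNA 1. GAMT, which makes creatine, had 5.12, 4.71 and 5.76 FPKM with siRNA 2 and 15.6, 13 and 15.4 FPKM with control siRNA, a log2 fold change of -1.34 (SE 0.09, limma adjusted P = 5.46e-07). Of 33 histone and DNA methylation enzymes 4 rose and 5 fell, or 7 and 3 after scaling, and 2 rose without siRNA 2 library r2 or control library r1. The falls include the H3K9 methyltransferase SETDB1, a partner of KRAB zinc finger repressors, at -0.76. Of 24 genes of nonsense-mediated decay and the exosome 1 rose and 5 fell, and of 30 tubulins and microtubule proteins 3 rose and 4 fell, with the neuronal tubulin TUBB2B at -0.74 and TUBA1A at 0.55. Of 10 kinases of the MARK, SIK, NUAK and BRSK group 2 rose and 1 fell. SIK1 had 16.8, 17.5 and 17.4 FPKM against 9.31, 8.75 and 8.98 FPKM and was called above siRNA 1 by 0.46 on the log2 scale.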
